A study of Mus musculus with 6 samples.

Results

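Transcripts of 10 Hippo pathway genes were followed in pools of mouse oocytes matured in vitro with or without quercetin, a plant flavonol. The genes were *Nf2*, *Sav1*, *Stk3*, *Stk4*, *Lats1*, *Lats2*, *Mob1a*, *Yap1*, *Wwtr1* and *Tead4*, and all 10 were found by symbol among the 53465 Ensembl genes of the deposited count table. They were chosen by membership of the pathway, around *Nf2*, which was picked because its counts differed between the groups in some tests of these same pools. The difference in *Nf2* is therefore a description, and every test outcome given for it restates its choice. The other members and the wider gene lists were also chosen with earlier results of these data known. RNA sequencing covered 6 pools of M II stage oocytes, each of 15 oocytes from 3 female Kunming mice aged 9 to 10 months, taken as naturally aged animals. The control group (3 pools) was matured without quercetin and the quercetin group (3 pools) with 10 μM quercetin, and the groups did not differ in any other labelled respect. Quercetin was dissolved in DMSO, and the study's methods do not say whether the control medium held DMSO. Cumulus cells had been pipetted off before maturation, per the same methods. Because a pool mixes oocytes, less RNA in every oocyte and fewer oocytes that carry it cannot be told apart.

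The Hippo pathway is a kinase cascade that controls growth by keeping transcriptional co-activators out of the nucleus. Merlin, the product of *Nf2*, works at the cell membrane and brings LATS kinases to their activators. The kinases MST2 (*Stk3*) and MST1 (*Stk4*), with the scaffold *Sav1*, activate *Lats1* and *Lats2* together with the MOB1 adaptors, and LATS then phosphorylates YAP (*Yap1*) and TAZ (*Wwtr1*). Unphosphorylated YAP and TAZ enter the nucleus and bind TEAD factors such as *Tead4*. In the mouse this pathway is best known after fertilization, when it separates the outer trophectoderm from the inner cells of the embryo. An M II oocyte makes almost no new RNA, so its transcripts are those stored during growth, and their poly(A) tails are lengthened or shortened in the cytoplasm.

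The ends of the stored transcripts were examined because Smart-seq libraries are primed on poly(A) tails. Cytoplasmic polyadenylation elements (CPEs), the RNA motif bound by CPEB, were searched as TTTTAT or TTTTAAT, and polyadenylation signals as AATAAA or ATTAAA. The search covered the coding strand in the last 100 bases of 1 main transcript per gene in GENCODE release M21 (GRCm38). All 10 members held a signal, against 78.6% of 19368 coding genes, and 7 of 10 held a CPE, against 17.87% of the same genes. These coding genes were taken whatever their expression in oocytes. The share among the genes tested here was not computed, so a CPE is not shown to be particular to the members. The 7 were *Nf2*, *Sav1*, *Stk3*, *Stk4*, *Lats1*, *Yap1* and *Wwtr1*. No CPE of this spelling was found in the same window of *Lats2*, *Mob1a* or *Tead4*. The sites of the 3 members whose pools did not overlap between the groups are shown as 30 bases on the coding strand. CPE and signal are in capitals. These 3 were picked by the contrast of quercetin with control, on which *Nf2* was chosen. The other members with a CPE, *Stk3*, *Stk4*, *Lats1* and *Wwtr1*, had overlapping pools, as did *Lats2* and *Mob1a* without one. Whether a CPE goes with a difference between the groups was not tested. The *Nf2* site lies at chr11:4765865-4765894, the *Sav1* site at chr12:69965028-69965057 and the *Yap1* site at chr9:7931999-7932028, each on the minus strand.
Nf2: gattataatttaagtgattgTTTTAATAAA
Sav1: gcatttgaTTTTATataacaagttATTAAA
Yap1: tacAATAAAccaatTTTTATaatcttaaaa
In *Nf2* the CPE and the signal overlap, with the CPE starting 4 bases before the signal. In *Sav1* the CPE starts 16 bases before the signal, and in *Yap1* it lies after the signal and starts 16 bases before the annotated end. A match in the annotation is a description only, since gene counts do not show which transcript end was present in these oocytes.

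The 6 pools held between 7880467 and 9938743 counts on genes, and a gene at 3 counts stands at 0.302 to 0.381 CPM (counts per 1000000 counts of the pool, here without further scaling). Amplified reads carry no molecular identifiers, so this floor covers counting error only. Nothing in the labels ties the pools to separate cultures, so p-values measure the spread between these pools. All 10 oocyte markers examined were detected, but *Zp2* ranged from 1045 to 12980 counts between pools of the same design. Of the 9 oocyte markers tested, 1 passed an unadjusted p of 0.05, *Ooep*, which was lower with quercetin like *Nf2* (log2 fold change -0.92, with overlapping pools), and its part in the results was not tested. Of 12 cumulus and granulosa markers, *Foxl2*, *Amhr2*, *Ptx3* and *Fst* were at 0 in all 6 pools. The 12 markers summed to 62.9 to 77.6 CPM in control pools and 79.2 to 85.1 CPM in quercetin pools, most of it *Cyp19a1*. These sums did not overlap between the groups. Nor did *Cyp19a1* alone, at 58.4 to 68.9 CPM in control pools and 73.1 to 75.9 CPM in quercetin pools. Without *Cyp19a1* the sums overlapped, at 4.45 to 10.997 CPM in control pools and 6.12 to 10.1 CPM in quercetin pools. *Tnfaip6* had 0 counts in each control pool and 2, 8 and 4 after quercetin, too few for the test. Of the 3 markers tested, 2 had a positive and 1 a negative log2 fold change. The part of these cells in the results below was not tested.

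*Nf2* (ENSMUSG00000009073, chromosome 11 from 4765845 to 4849536) gave 192, 130 and 171 reads in the controls and 65, 86 and 51 reads after quercetin. The lowest control pool therefore held more *Nf2* reads than the highest quercetin pool. In CPM scaled by TMM (trimmed mean of M values, edgeR's correction for library composition), *Nf2* averaged 18.8 ± 2.98 without and 7.86 ± 1.73 with quercetin (SD, n = 3). Quercetin over control gave a log2 fold change of -1.26 (standard error 0.25, 95% interval -1.83 to -0.69), which is 2.39-fold lower. These are the values by which *Nf2* was chosen. The outcome of a test on *Nf2* restates this choice and is no separate evidence. By the study's criteria, an adjusted p below 0.05 and more than a 2-fold difference, that outcome differed between tools, since DESeq2 and the likelihood ratio test of edgeR placed *Nf2* past them and limma-voom and edgeR's quasi-likelihood test, the test used throughout, did not. With any single pool left out, its log2 fold change lay between -1.41 and -1.09. The exons of *Nf2* overlap no other annotated gene, and 0.158% of the 31-base words of its transcripts occur in transcripts of other genes.

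**Figure D1:**
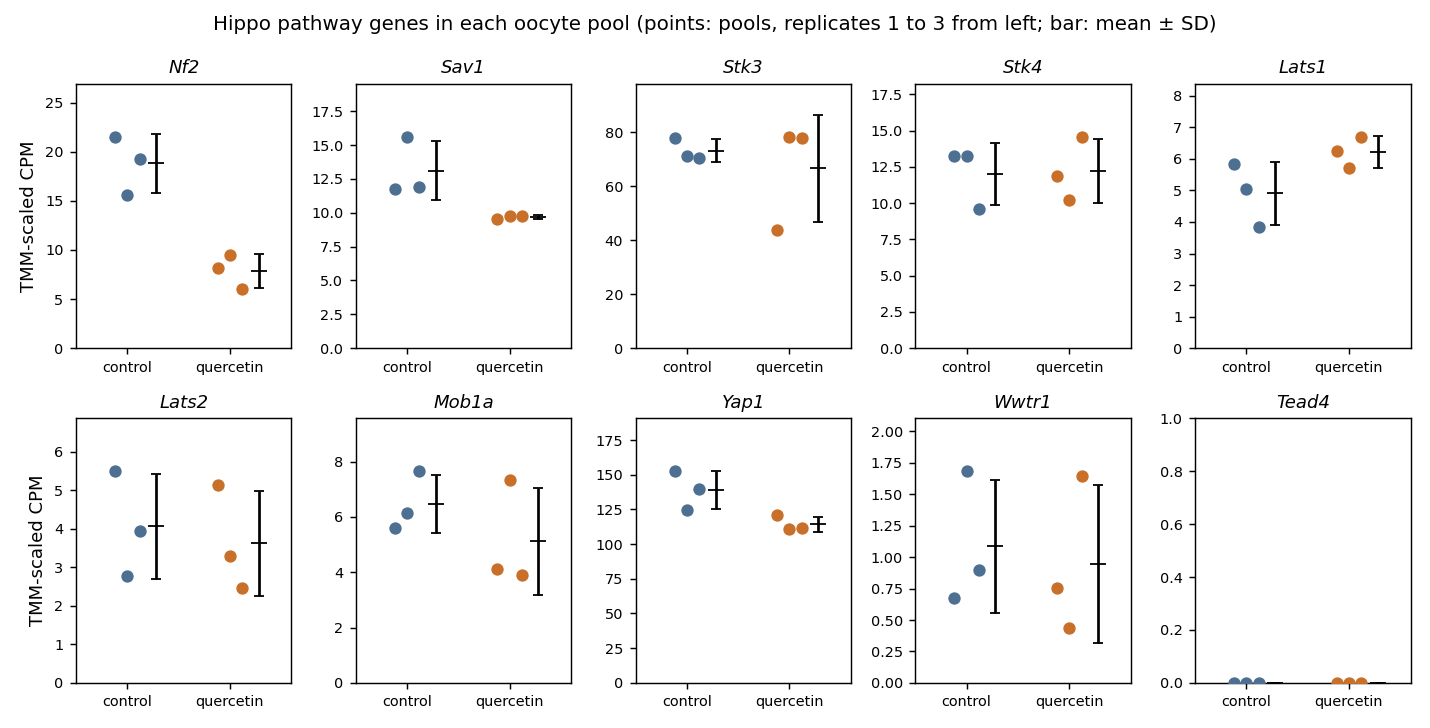
Each panel plots 1 of the 10 genes, with TMM-scaled CPM on a linear axis from 0, each point 1 pool and each bar the mean ± SD of 3 pools. The *Nf2* pools sit between 15.6 and 21.5 CPM in control and between 6.003 and 9.43 CPM in quercetin, *Sav1* and *Yap1* also do not overlap between the groups, and *Tead4* is at 0 in every pool.

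The kinase cassette was compared next, since it holds the LATS kinases and their activators. *Stk3* (ENSMUSG00000022329, chromosome 15 from 34875496 to 35178921), which encodes MST2, gave 695, 591 and 626 reads in the controls and 350, 715 and 661 reads after quercetin. Only quercetin replicate 1 was low, and the other quercetin pools lay within or above the control range. *Stk4* (ENSMUSG00000018209, chromosome 2 from 164070322 to 164155524), which encodes MST1, gave 118, 110 and 85 reads in the controls and 95, 93 and 124 reads after quercetin. Its groups overlapped, at 12.01 ± 2.12 CPM without and 12.2 ± 2.22 CPM with quercetin (SD, n = 3). Quercetin over control came to a log2 fold change of -0.13 (standard error 0.23) for *Stk3* and 0.03 (standard error 0.25) for *Stk4*, and the 95% intervals were -0.65 to 0.39 and -0.53 to 0.58. Neither direction was stable, as *Stk3* turned to 0.096 without quercetin replicate 1, and *Stk4* to -0.051 by library size alone, to -0.11 without control replicate 3 and to -0.12 without quercetin replicate 3.

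*Sav1* (ENSMUSG00000021067, chromosome 12 from 69965012 to 69987002), the scaffold that holds MST kinases, gave 105, 130 and 106 reads in the controls and 76, 89 and 83 reads after quercetin. Each quercetin pool was below each control pool, at 9.68 ± 0.142 CPM against 13.1 ± 2.18 CPM (SD, n = 3). This made a log2 fold change of -0.44 (standard error 0.22, 95% interval -0.94 to 0.07), which missed the criteria (edgeR adjusted p = 0.988, unadjusted p = 0.0812). Of its exon length, 25.4% overlaps *Atl1* on the other strand, and reads of the pair cannot be told apart where counting did not use the strand.

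*Lats1* (ENSMUSG00000040021, chromosome 10 from 7681214 to 7716460) gave 52, 42 and 34 reads in the controls and 50, 52 and 57 reads after quercetin. The kinase it encodes phosphorylates YAP and TAZ, as does that of its paralogue *Lats2* (ENSMUSG00000021959, chromosome 14 from 57689662 to 57758388). *Lats2* gave 49, 23 and 35 reads in the controls and 41, 30 and 21 reads after quercetin. Neither gene parted the groups, with log2 fold changes of 0.34 (standard error 0.27) for *Lats1* and -0.17 (standard error 0.38) for *Lats2*. At this depth the 95% intervals were wide, -0.27 to 0.95 for *Lats1* and -1.03 to 0.70 for *Lats2*, and *Lats2* turned to 0.11 without control replicate 1 and to 0.045 without quercetin replicate 3. *Lats2* is the less certain of the pair, because 42.4% of its exon length overlaps the annotated gene *Gm49361* on the same strand, between which reads can be split.

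*Mob1a* (ENSMUSG00000043131, chromosome 6 from 83326016 to 83343776), an adaptor that activates LATS, gave 50, 51 and 68 reads in the controls and 33, 67 and 33 reads after quercetin. Quercetin replicate 2 lay with the controls, and the log2 fold change was -0.33 (standard error 0.32, 95% interval -1.06 to 0.40). Its paralogue *Mob1b* (ENSMUSG00000006262, chromosome 5 from 88720855 to 88764220) gave 652, 548 and 545 reads in the controls and 641, 768 and 652 reads after quercetin. After TMM scaling the *Mob1b* pools did not overlap, at 66.8 ± 5.98 CPM in control and 80.4 ± 3.75 CPM in quercetin (SD, n = 3). The log2 fold change of *Mob1b* was 0.27 (standard error 0.15, 95% interval -0.07 to 0.61), which missed the criteria (edgeR adjusted p = 0.988).

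Among the transcriptional effectors, *Yap1* (ENSMUSG00000053110, chromosome 9 from 7931999 to 8004596) gave 1359, 1037 and 1242 reads in the controls and 963, 1009 and 950 reads after quercetin. Each quercetin pool was below each control pool, at 114 ± 5.45 CPM against 139 ± 13.9 CPM (SD, n = 3). The difference was small, a log2 fold change of -0.28 (standard error 0.14, 95% interval -0.60 to 0.04), and missed the criteria (edgeR adjusted p = 0.988, unadjusted p = 0.0793). Scaled by library size alone, *Yap1* had a log2 fold change of -0.36 and an unadjusted p = 0.0237 in edgeR, while the median of all tested genes moved from -0.026 to -0.11.

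*Wwtr1* (ENSMUSG00000027803, chromosome 3 from 57455649 to 57575910), which encodes TAZ, gave 6, 14 and 8 reads in the controls and 6, 4 and 14 reads after quercetin. These counts overlapped and were too few for the test. *Tead4* (ENSMUSG00000030353, chromosome 6 from 128224288 to 128300823), the TEAD factor known for its role in the trophectoderm, had 0 counts in all 6 pools, which allows up to 0.302 to 0.381 CPM depending on the pool. Of the other TEAD genes, *Tead1* gave 13, 19 and 21 reads in the controls and 21, 14 and 22 reads after quercetin, with a log2 fold change of 0.14 (standard error 0.39) that turned to -0.048 without control replicate 1. *Tead2* had 2 to 11 counts per pool, and *Tead3* had 2 counts in control replicate 3 and 0 in the other pools. *Tead2*, *Tead3* and *Tead4* were thus near or under the floor of these libraries, and *Tead1* was low but detected in every pool.

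**Figure D2:**
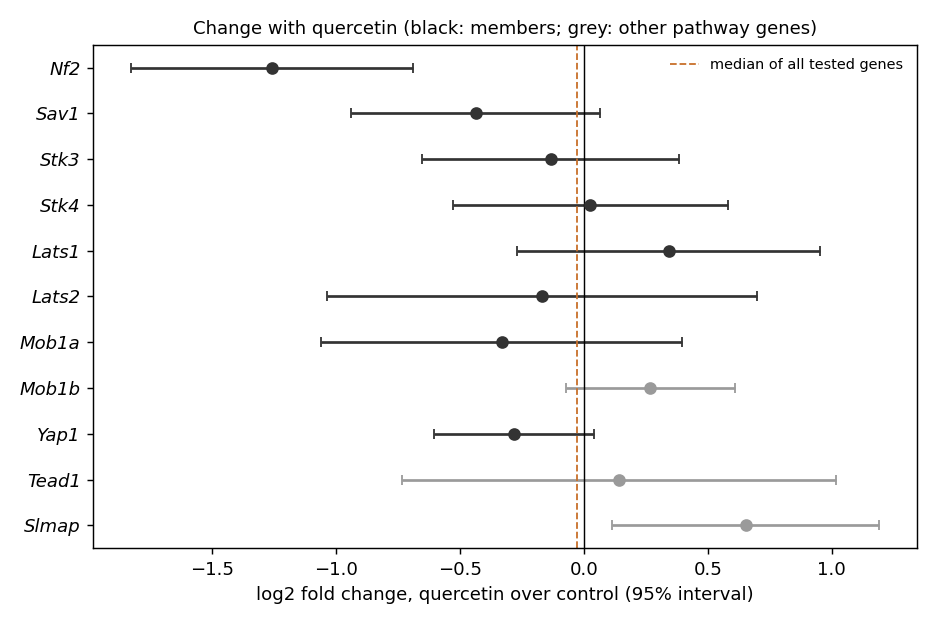
The horizontal axis gives the log2 fold change of quercetin over control with its 95% interval from edgeR's quasi-likelihood fit, for the 8 tested members (black) and 3 other pathway genes (grey). The *Nf2* interval ends at -0.69, those of *Sav1* and *Yap1* reach 0.07 and 0.04, and that of *Slmap* starts at 0.11.

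Counted together, 8 of the 10 members passed the filter on low counts and were tested, with *Wwtr1* and *Tead4* left out. By these criteria 0 of the 8 were called in edgeR's quasi-likelihood fit, as were 0% of all 11842 tested genes. DESeq2 called 12 genes and edgeR's likelihood ratio test 16 genes by the same criteria, with *Nf2*, chosen on this contrast, the member among them in both. Before adjustment, at a p under 0.05, 1 member was lower (*Nf2*, against 1.89% of tested genes lower) and 0 members were higher (against 2.14% higher). The quercetin pools were all below the control pools for 3 of the 8 (*Nf2*, *Sav1* and *Yap1*, against 5.17% of tested genes) and all above them for 0 of the 8 (against 5.42%). Of these 3, *Nf2* was chosen on this contrast, so the share is a description. The median log2 fold change of the 8, *Nf2* included, was -0.22, beside -0.026 over all tested genes.

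The levels of the members were then ordered. As longer transcripts collect more reads, CPM was divided by the merged exon length of each gene (CPM per kb), and the median tested gene stood at 3.30 CPM per kb. *Yap1* was highest at 13.7 ± 1.78 CPM per kb (SD, n = 6 pools of both groups), above 76.0% of the tested genes. *Stk3* followed at 11.4 ± 2.17 CPM per kb, and its range of 7.17 to 12.8 overlapped the range of *Yap1*, 11.96 to 16.5. The other members lay below both, without overlap, led by *Sav1* at 2.16 ± 0.443 and *Stk4* at 2.07 ± 0.332 CPM per kb, whose ranges overlapped. *Nf2* averaged 1.95 ± 0.935 CPM per kb over both groups, but its place differed with the group. Its control pools, at 3.16, 2.29 and 2.82 CPM per kb, lay in or above the ranges of *Sav1* and *Stk4*, and its quercetin pools, at 1.19, 1.38 and 0.88 CPM per kb, lay below both. *Mob1a* at 1.21 ± 0.329, *Lats1* at 0.763 ± 0.140 and *Lats2* at 0.552 ± 0.179 CPM per kb followed, each overlapping the next, and the quercetin pools of *Nf2* overlapped *Mob1a* and *Lats1*. *Wwtr1* stood at 0.213 ± 0.110 CPM per kb, with its highest pool at 0.352, just under the lowest *Lats2* pool at 0.355. With the length of the main transcript in place of merged exons, *Nf2* (2.82 CPM per kb) stood above *Stk4* (2.32 CPM per kb), and the other members kept their places.

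Each pair of paralogues was represented unequally, except the LATS pair, which showed no steady order. The ratio of *Yap1* to *Wwtr1* in CPM per kb was 35.03 to 130 over the 6 pools, or 77.5 to 288 by the length of the main transcript. *Stk3* exceeded *Stk4* in every pool, with a ratio of 5.64 ± 1.41 (SD, n = 6), or 10.6 by the length of the main transcript. *Mob1b* exceeded *Mob1a* in every pool, with a ratio of 4.38 ± 1.54 (SD, n = 6). This ratio was 22.4 by the length of the main transcript, since the merged exons of *Mob1b* measure 15033 bases and its main transcript 2705 bases. The ratio of *Lats1* to *Lats2* was 1.52 ± 0.625 (SD, n = 6) and fell on both sides of 1, from 0.928 to 2.59. As 42.4% of the *Lats2* exon length overlaps *Gm49361*, its level is uncertain, and this ratio does not show equal levels.

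**Figure D3:**
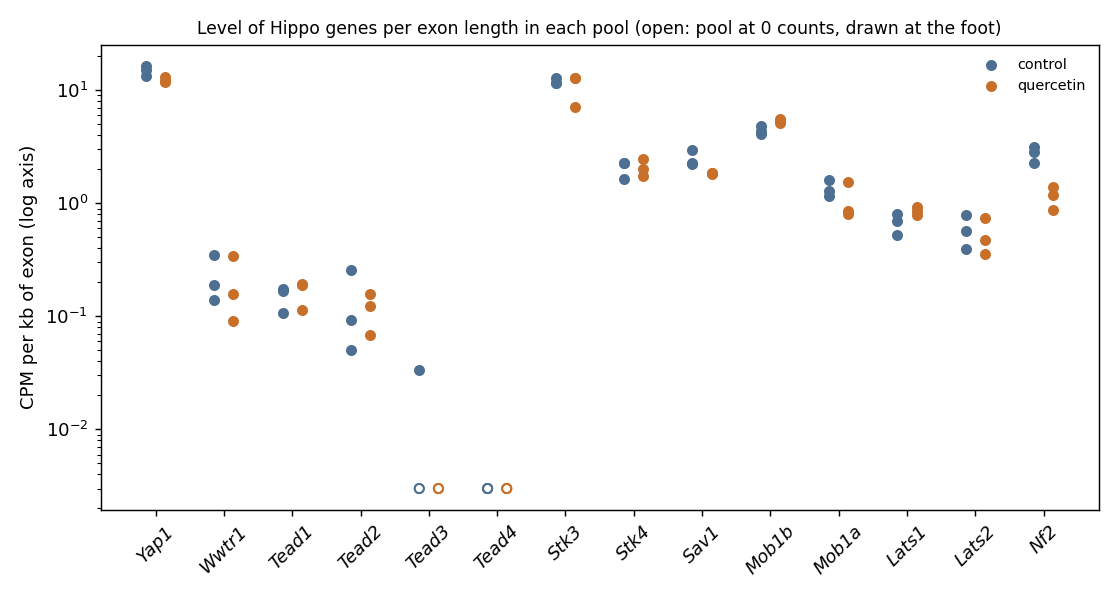
CPM per kb of merged exon is plotted on a log axis for the members and their paralogues, each point 1 pool and open points pools at 0 counts, drawn at the foot of the axis. *Yap1* and *Stk3* stand above the other members, while *Wwtr1* and the TEAD genes are at the bottom, with *Tead4* at 0 in all 6 pools.

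The wider pathway was described by 59 genes in 6 lists, of which 40 were tested. Besides *Nf2*, which was chosen on this contrast, 1 of these genes passed an unadjusted p of 0.05 (*Slmap*, higher), beside 4.03% of all tested genes, and 0 of the 40 passed adjustment in edgeR's quasi-likelihood test. With library size alone for scaling, all genes at an unadjusted p under 0.05 split into 145 higher and 362 lower, in place of 253 higher and 224 lower with TMM. The quercetin pools were all below the control pools for 3 of the 40, the members *Nf2*, *Sav1* and *Yap1*, against 5.17% of tested genes. They were all above them for 3 of the 40, *Mob1b*, *Slmap* and *Ywhaz*, against 5.42%. By library size only the pools of *Ywhaz* overlapped. These counts were equal, and *Nf2*, among those below, was chosen on this contrast, so they are a description. By sign, 23 of the 40 had a negative and 17 a positive log2 fold change, beside 6352 and 5490 of all tested genes. The median log2 fold change of the 40 was -0.035.

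Of the 17 upstream inputs, which sense polarity, contacts and the cytoskeleton, 13 were tested. Their median log2 fold change, *Nf2* included, was -0.29, beside -0.026 over all tested genes. Besides *Nf2*, 0 of them passed an unadjusted p of 0.05 in edgeR's quasi-likelihood test. A negative log2 fold change was found for 10 of the 13, *Nf2* included, and for 6352 of all 11842 tested genes. *Amotl2* and *Dchs1* were at 0 in all 6 pools. The 7 genes of the core cassette were all tested, and 4 had a negative and 3 a positive log2 fold change, with the sign of *Stk4* depending on the scaling.

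The 12 inhibitors of the kinases include the STRIPAK phosphatase complex, which removes phosphate from MST kinases. *Slmap*, which anchors MST kinases to STRIPAK, gave 784, 432 and 506 reads in the controls and 1017, 807 and 796 reads after quercetin. The log2 fold change was 0.65 (standard error 0.24, 95% interval 0.11 to 1.19, edgeR adjusted p = 0.988). Its pools did not overlap after TMM scaling, at 65.6 ± 19.5 CPM in control and 103 ± 21.1 CPM in quercetin (SD, n = 3), with the highest control pool at 88.0 and the lowest quercetin pool at 88.5 CPM. By library size only they overlapped, and *Slmap* did not reach an unadjusted p of 0.05 when control replicate 2, control replicate 3 or quercetin replicate 1 was left out. Of the 9 tested genes in this list, 5 had a negative and 4 a positive log2 fold change.

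Another list held 6 genes for proteins that retain phosphorylated YAP and TAZ or take part in their degradation. Its most abundant gene was *Ywhae*, at 243 CPM per kb. *Ywhae*, a 14-3-3 protein that retains YAP in the cytoplasm, stood at 581 ± 73.9 CPM without and 667 ± 51.9 CPM with quercetin (SD, n = 3). Quercetin over control came to a log2 fold change of 0.20 (standard error 0.15), and 0 of the 6 genes of this list passed an unadjusted p of 0.05 in edgeR's quasi-likelihood test. Of 10 genes known as targets of YAP and TAZ, *Ccn1*, *Ccn2*, *Nuak2* and *Cdx2* were at 0 in all 6 pools, *Ankrd1*, *Axl*, *Crim1* and *F3* had at most 5 counts in any pool, and *Birc5* and *Gata3* were tested. *Birc5*, which encodes a subunit of the chromosomal passenger complex as well, had 215 ± 18.7 CPM without and 212.5 ± 31.8 CPM with quercetin (SD, n = 3). Quercetin over control came to a log2 fold change of -0.02 (standard error 0.16), and its sign changed in 5 of the 14 alternatives. The genes at 0 were named after their values were seen.

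**Figure D4:**
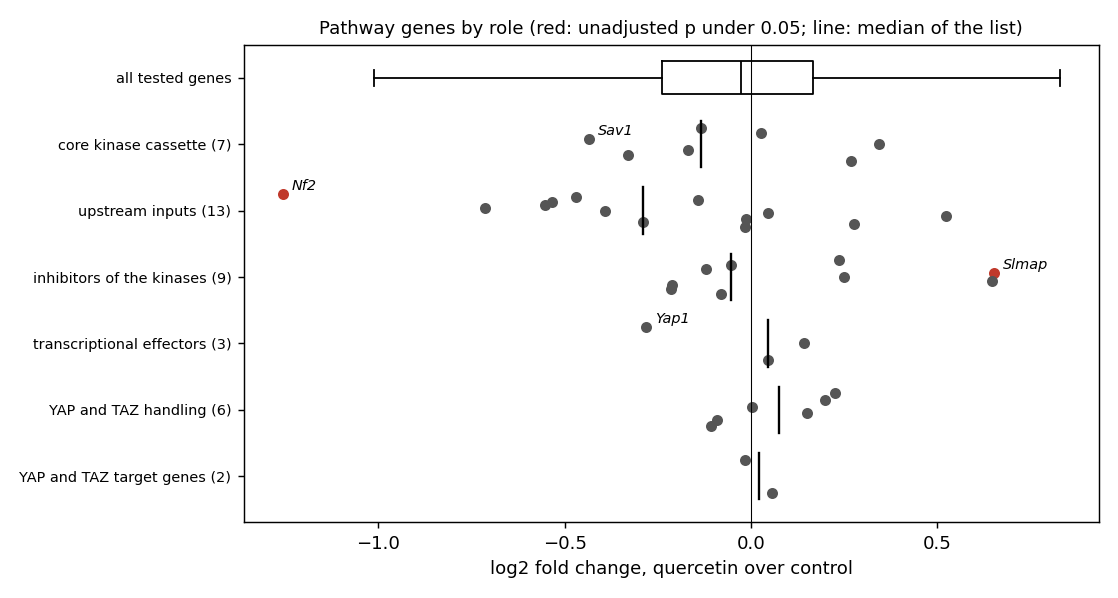
Log2 fold changes of quercetin over control are plotted for the 40 tested pathway genes by role, with the median of each list as a black line and, in the top row, all 11842 tested genes as a box from the lower to the upper quartile with whiskers at percentiles 1 and 99. *Nf2* at -1.26 and *Slmap* at 0.65 are the points with an unadjusted p under 0.05 (red).

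Genes whose pools varied most like those of *Nf2* were sought by the root mean square difference in log2 CPM, centred on each gene's mean over the 6 pools. The nearest of the tested genes were *Ptp4a1* (difference 0.18), *Lbx1* (0.19), *Tnrc6a* (0.19), *A730071L15Rik* (0.21) and *Rn7s2* (0.25). *Ptp4a1*, the nearest, gave 2336, 1560 and 1788 reads in the controls and 948, 1016 and 770 reads after quercetin. *Tnrc6a*, a partner of Argonaute in microRNA silencing, gave 210, 128 and 138 reads in the controls and 55, 72 and 57 reads after quercetin. As *Nf2* was picked for its difference between the groups, genes like it also differ between them. For *Yap1* the nearest were *Gse1* (difference 0.051), *Nab2* (0.052), *Cnot11* (0.053), *Cds2* (0.056) and *Mvb12b* (0.056). *Gse1*, the nearest, gave 191, 154 and 175 reads in the controls and 148, 153 and 143 reads after quercetin. *Cnot11*, a subunit of the CCR4-NOT deadenylase, gave 817, 602 and 750 reads in the controls and 627, 612 and 599 reads after quercetin. Neither *Tnrc6a* nor *Cnot11* was the nearest gene, and a shared function of the genes named here was not tested. No other member was among these 10 genes.

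**Figure D5:**
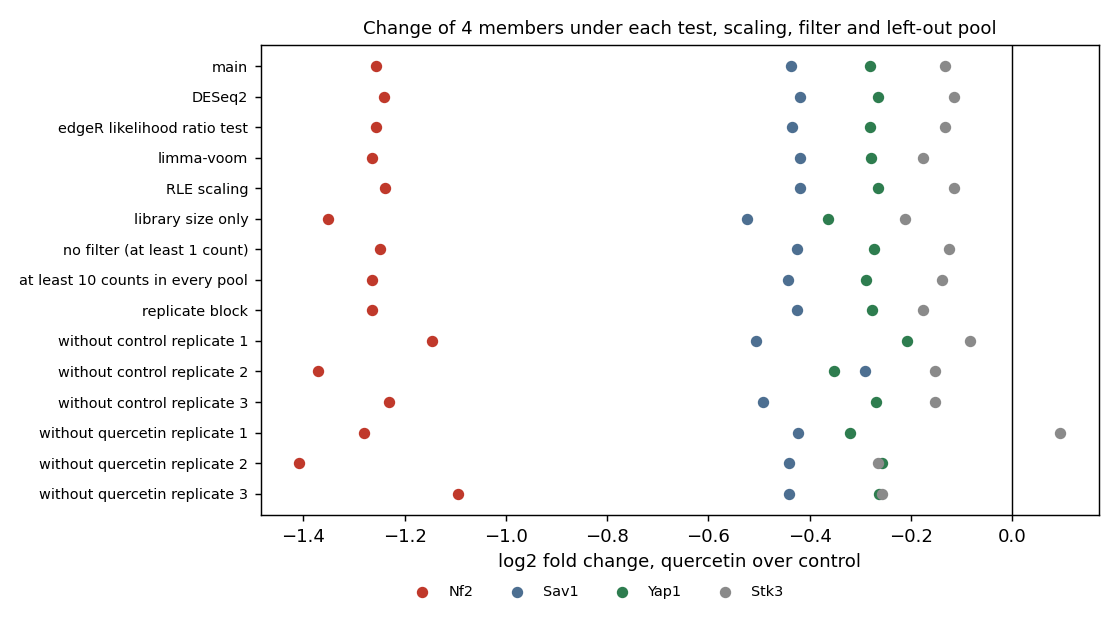
The log2 fold change of quercetin over control is plotted for *Nf2*, *Sav1*, *Yap1* and *Stk3* under the test used and 14 alternatives of test, scaling, filter, replicate block and left-out pool. *Nf2* stayed between -1.41 and -1.09, *Sav1* between -0.52 and -0.29 and *Yap1* between -0.36 and -0.21, while *Stk3* turned positive (0.096) without quercetin replicate 1.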

How the data were processed

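Values were the counts the authors deposited: whole numbers of reads on each Ensembl gene in each of 6 pools, not normalized and not pooled. The paper's methods name Hisat2 and release 91 of GRCm38 for the alignment, while the submitters' processing notes list CASAVA 1.8 and TopHat2 2.0.6 without a role. The counting program and its settings for strand and multiply mapped reads are not given in the sources used here. Libraries were made with a Smart-seq kit, which copies polyadenylated RNA.

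Groups and replicate numbers came from the sample titles. Genes were matched to symbols by Ensembl identifier (53274 of 53465 matched), and coordinates and lengths came from GENCODE release M21 on GRCm38, the build of the files. At least 1 read was present for 24476 genes, and 11842 of them passed filterByExpr (minimum count 10) and were scaled by TMM. Quercetin was set against control by the quasi-likelihood test of edgeR 4.0.16 in R 4.3.3 on the whole table, without covariates and adjusting p by Benjamini-Hochberg across the 11842 genes. The criteria, an adjusted p below 0.05 and more than a 2-fold difference, are those of the study. CPM other than the floor were taken on library sizes multiplied by the TMM factor. Standard errors are the absolute log2 fold change divided by the square root of F. The fit was also run on simulated counts with known fold changes. Those counts lack the gene-specific spread of the real pools, so that run does not show how the fit performs on them. The members and gene lists were chosen with earlier results of these data known.

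Besides the 10 members, the text names paralogues of members, pathway genes at an unadjusted p under 0.05 or, in a list without one, the most abundant gene, and the 5 genes most like *Nf2* and *Yap1*. Other genes are named as markers or for counts at or near 0, the latter after their values were seen. *Ywhaz* is named because its pools did not overlap, also after its values were seen. The alternatives included the likelihood ratio test of edgeR, DESeq2 1.42.0, voom in limma 3.58.1, scaling by RLE or library size only, other filters, the replicate block and leaving out each pool. The main transcript length and counts without length were added after seeing the data.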

Additional observations from a re-analysis of the deposited data

How the results depend on the processing

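The log2 fold changes of the 8 tested members kept their direction and their side of the criteria in 104 of 112 values under the alternatives, and those of *Nf2*, *Sav1*, *Lats1*, *Mob1a* and *Yap1* kept their direction in all 14. *Nf2* passed the criteria with DESeq2 (log2 fold change -1.24) and with edgeR's likelihood ratio test (-1.26), so these tests each called 1 member in place of 0, which restates the choice of *Nf2* on this contrast. *Stk4* turned to -0.051 by library size only. With single pools left out, *Stk4* lay between -0.12 and 0.14, *Stk3* between -0.26 and 0.096 and *Lats2* between -0.49 and 0.11. Among the other pathway genes, leaving out each pool moved *Tead1* between -0.048 and 0.36 and *Birc5* between -0.14 and 0.078, and *Birc5* was at 0.00084 with DESeq2 and 0.00077 with RLE scaling. The cause of these turns was not tested. *Yap1* joined *Nf2* at an unadjusted p under 0.05 by library size only, which made 2 members in place of 1, and each fit without 1 pool left 1. The number of pathway genes at an unadjusted p under 0.05 was 1 to 4 without 1 pool, in place of 2, lowest without control replicate 2 or quercetin replicate 1 and highest without quercetin replicate 3. Over all genes, 12 were called with DESeq2, 16 with the likelihood ratio test, 3 without a filter (24476 genes tested) and 0 to 7 without 1 pool, in place of 0. At an unadjusted p under 0.05 there were 477 genes, 780 without a filter and 241 to 1563 without 1 pool, lowest without control replicate 2 and highest without quercetin replicate 3. Pools of both groups are numbered 1 to 3 but are not described as pairs, so the main fit did not pair them. Deviations from the group means correlated by 0.282, 0.118 and -0.0324 between pools of the same number. The mean between pools of other numbers was lower, at -0.0613. Whether the numbers mark something the pools share was not tested. With the replicate block, 492 genes had an unadjusted p under 0.05, 1 member (*Nf2*, log2 fold change -1.26) was among them and 0 genes were called. At 3 counts the floor was 0.302 to 0.381 CPM, which limits *Wwtr1* and the TEAD genes.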

Other observations

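*Limd1*, which encodes a LIM protein that binds LATS kinases, was singled out after its values were seen. It gave 20, 14 and 296 reads in the controls and 17, 287 and 210 reads after quercetin, so that control replicate 3 and quercetin replicates 2 and 3 were high and the other pools low, and the groups overlapped.

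*Taok2*, which encodes a kinase upstream of MST, also singled out after its values were seen, gave 56, 11 and 12 reads in the controls and 25, 23 and 62 reads after quercetin, with the highest pool of each group in a different replicate number.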
